A study of Mus musculus with 20 samples.

Results

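The 9 genes described here, Egr1, Egr2, Egr3, Egr4, Nr4a1, Nr4a2, Nr4a3, Arc and Npas4, are genes whose transcription rises quickly in neurons when the cells are excited. They were chosen by name as a known family of activity-induced genes, with earlier results of these data known, and all 9 were among the 12988 genes of the count table. RNA was sequenced from microdissected adBNST, the anterodorsal part of a forebrain nucleus, the bed nucleus of the stria terminalis, that takes part in responses to stress. Mice entered the study at an age of 7 to 9 weeks. The 4 groups were female controls, stressed females, male controls and stressed males, with 15 mice each. Stressed mice had gone through chronic variable mild stress (CVMS), a schedule of changing mild stressors, 1 or 2 a day for 6 weeks, and were killed 1 hour after the last of them, a period on wet bedding. All mice, the controls too, received ketamine anaesthesia before decapitation, and the strain was not given in the sources used here. Tissue of 3 mice was pooled for each library, so that each group had 5 libraries (20 in all) and p-values measure the spread between pools, which is smaller than that between single mice.

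Immediate early genes are transcribed within minutes of calcium entry or growth factor signalling, from regulatory proteins that are already present in the cell, and their RNA is lost again within hours. In brain tissue their level is therefore widely used as a record of recent neuronal activity. The 4 Egr genes encode zinc finger transcription factors that bind GC-rich sites, Nr4a1 (Nur77), Nr4a2 (Nurr1) and Nr4a3 (Nor1) encode orphan nuclear receptors, Npas4 encodes a transcription factor induced by calcium entry in neurons, and Arc encodes a cytoskeleton-associated protein that takes part in removing AMPA receptors from synapses. Nr4a2 is also known as a lasting marker of some neuron types, such as midbrain dopamine neurons and neurons of the claustrum.

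Activity is known to reach such genes in part through sites in the DNA just upstream. Among these are the cyclic AMP response element (CRE), bound by CREB, and the serum response element, bound by SRF. RefSeq promoter windows (GRCm38.p6) were available for 6 of the 9 genes. The stretch before annotated exons (for Npas4 a short stretch around its cores) is printed for 1 window of each gene, 5′ to 3′ on the gene's strand. It shows where letters of such sites occur. Capitals mark the CRE core (TGACG, or CGTCA when read on the other strand) and, in Egr2 only, the serum response element as well. The windows are chr10:67537619-67537868 on the plus strand for Egr2, chr6:85513590-85513839 on the minus strand for Egr4, chr15:101266596-101266845 on the plus strand for Nr4a1, chr2:57124004-57124253 on the minus strand for Nr4a2, chr4:48045055-48045152 on the plus strand for Nr4a3 and chr19:4990129-4990158 on the minus strand for Npas4. The Egr2, Nr4a1 and Npas4 windows lie inside the span of the annotated gene, whose longest extent starts further upstream.
Egr2: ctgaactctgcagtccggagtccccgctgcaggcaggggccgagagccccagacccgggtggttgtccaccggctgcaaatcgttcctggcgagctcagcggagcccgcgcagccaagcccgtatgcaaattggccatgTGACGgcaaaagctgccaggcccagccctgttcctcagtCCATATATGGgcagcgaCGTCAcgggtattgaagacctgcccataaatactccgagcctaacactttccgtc
Egr4: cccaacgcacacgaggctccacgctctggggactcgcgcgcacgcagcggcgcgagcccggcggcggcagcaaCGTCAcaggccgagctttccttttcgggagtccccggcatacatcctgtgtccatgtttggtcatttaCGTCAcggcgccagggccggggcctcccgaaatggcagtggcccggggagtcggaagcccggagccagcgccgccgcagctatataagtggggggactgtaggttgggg
Nr4a1: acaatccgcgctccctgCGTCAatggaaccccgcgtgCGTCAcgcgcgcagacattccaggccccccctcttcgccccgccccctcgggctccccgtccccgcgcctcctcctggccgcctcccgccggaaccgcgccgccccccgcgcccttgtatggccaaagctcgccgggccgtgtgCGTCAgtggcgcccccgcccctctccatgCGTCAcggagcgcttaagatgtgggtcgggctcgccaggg
Nr4a2: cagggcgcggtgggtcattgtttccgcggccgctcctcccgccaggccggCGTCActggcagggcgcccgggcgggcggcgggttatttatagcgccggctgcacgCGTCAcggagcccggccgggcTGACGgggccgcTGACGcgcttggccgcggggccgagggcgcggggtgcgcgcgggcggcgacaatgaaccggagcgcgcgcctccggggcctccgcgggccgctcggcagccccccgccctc
Nr4a3: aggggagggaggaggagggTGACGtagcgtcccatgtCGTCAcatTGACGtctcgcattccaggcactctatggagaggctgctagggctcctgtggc
Npas4: ccgttcgaCGTCAcgggaTGACGtcggaag

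The CRE core stood within 250 bases upstream of the start in 6 of 6 members with a window, against 3154 of the 10338 genes of the table that have one (30.5%). A gene with several windows counted if any of them held the motif. The Egr2 windows that start at chr10:67535249 and chr10:67537316 held 0 cores. The printed Egr2 window held 2, as did those of Egr4 and Npas4, and those of Nr4a1, Nr4a2 and Nr4a3 held 4 each. Cores were counted over all 250 bases, of which 98 are printed for Nr4a3 and 30 for Npas4. Nr4a2 thus carried as many cores as its relatives. The serum response element, an element of 10 bases searched by its usual consensus, was found in Egr2 alone of the 6, against 1.35% of the table's genes. The full CRE (TGACGTCA) was found in 0 of 6, against 3.12%, the NBRE to which Nr4a receptors bind (AAAGGTCA) in 0 of 6, against 0.967%, and an Egr site (GCGTGGGCG) in 0 of 6, against 1.24%. All motifs were searched on both strands, a CRE core can be part of a full CRE, and a match in letters is a description and not a measured site.

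In the annotation used (GENCODE M21, GRCm38), none of the 9 genes overlapped another gene. Egr2 lay at chr10:67535475-67542188, Egr3 at chr14:70077203-70082614, Egr4 at chr6:85511121-85513589, Nr4a1 at chr15:101254269-101274795, Nr4a2 at chr2:57106830-57124003, Nr4a3 at chr4:48045153-48086447, Arc at chr15:74669083-74672570 and Npas4 at chr19:4984355-4990316.

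Total counts ran from 2.71 to 33.6 M (mega) counts per library, and a member's count in a library from 19 (Nr4a2 in female control library 4) to 8873 (Egr1 in stressed male library 3). Of 12 markers of the bed nucleus and of GABA neurons, all 12 were in the table. Their summed level ran from 2379.8 to 2846 CPM (counts scaled to a common library size). Most of it came from general GABA neuron genes, Gad1, Gad2 and Slc32a1, with means of 706, 1125 and 302 CPM over all libraries. The other markers averaged 15.7 (Nkx2-1) to 261 CPM (Dlk1). The sum is therefore no check of the dissected region. Markers of neighbouring striatal tissue (14 of 14 in the table) were abundant as well and unequal: their summed level was 2553 to 3291 CPM in male controls, 3785 to 5877 CPM in stressed males, 2779 to 5138 CPM in female controls and 2694 to 5769.5 CPM in stressed females. Female control library 3 and stressed female library 2 had the lowest striatal marker level of their groups. Because the RNA came from whole tissue, fewer cells of a type and less RNA per cell cannot be told apart.

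Per kilobase of exon, which allows genes to be compared, Egr1 had the highest level of the 9, with a mean of 47.1 CPM per kilobase over 20 libraries, above 93.4% of all genes of the table with a length. Egr3 followed with 30.2, Arc with 22.0, Nr4a1 with 18.0 and Egr4 with 13.3 CPM per kilobase. Npas4 had 5.96, Nr4a3 5.47, Egr2 2.88 and Nr4a2 1.24 CPM per kilobase, the last above only 7.71% of genes. The order was stable from library to library. Each gene stood above the next in 18 to 20 of 20 libraries, except that Npas4 stood above Nr4a3 in only 13, so that the order of these 2 is not settled by their spread.

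Within a group the members differed from library to library more than most genes did, as the plot of member levels by library shows. Egr2 had the widest spread. In replicates 1 to 5 of the female controls its level was 18.3, 5.81, 2.89, 7.91 and 6.89 CPM, in stressed females 7.09, 7.22, 11.1, 9.72 and 14.4 CPM, in male controls 6.94, 13.6, 9.55, 6.03 and 11.2 CPM and in stressed males 7.98, 9.86, 19.7, 12.2 and 7.44 CPM. Female control library 1 was thus 6.31 times as high as female control library 3, and the other 18 libraries fell between 5.81 and 19.7 CPM. The SD of log2 CPM within groups was 0.633 for Egr2 and 0.301 to 0.414 for the other 8, against a median of 0.132 over all genes. Nr4a2 had the smallest of the 9. Each member was more variable than 94.1% to 99.9% of all genes. Genes of like count were less variable too: among the 500 genes nearest in level, 99.6% to 100% were less variable than the member for 8 of 9, and 77.6% for Nr4a2, the member with the fewest counts. Group membership took up 4.88% of the variance of log2 CPM for Npas4 and 43.3% for Nr4a3, with a median of 15.2% over members and 20.9% over all genes. These shares are not corrected for the number of groups, and with 5 libraries per group part of each arises without any group difference.

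**Figure D1:**
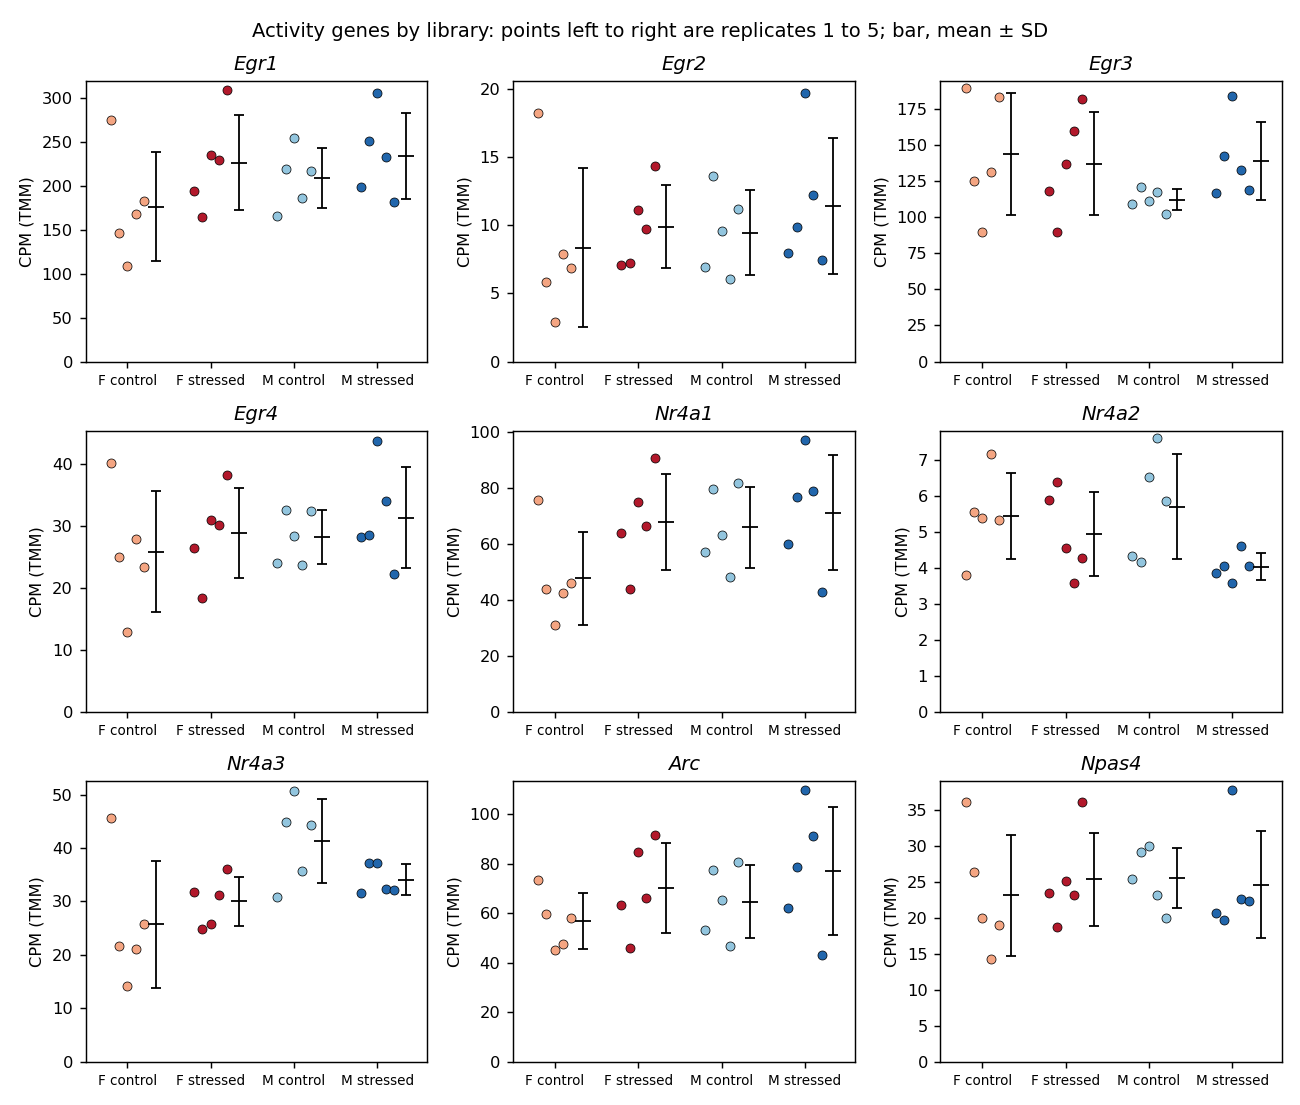
Level of each of the 9 genes (CPM) in the 20 libraries, with points for replicates 1 to 5 of each group from left to right and bars for mean ± SD. The 4 groups overlap for every gene, and the Egr2 points of female controls run from 2.89 to 18.3 CPM.

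Whether these genes differed between stressed and control mice was asked in each sex separately. All stressed mice had both the 6 weeks of stress and a last stressor 1 hour before death. Effects of the 2 cannot be told apart in these groups. In females, 0 of 9 members passed an adjusted p of 0.05 in edgeR's quasi-likelihood test with Benjamini-Hochberg adjustment, and 0% of all genes were called. DESeq2 called 1 gene of the table in this contrast, and 0 of 9 members here and in the other 4 contrasts. At an unadjusted p under 0.05, 0 of 9 members passed, against 7.51% of genes (976). 7 of 9 were higher in the stressed group, against 49.5% of all genes, with a median log2 difference of 0.17 against -0.0011 over all genes. The members vary together from pool to pool, so this count and those for the other comparisons are not sets of separate results. Without female control library 3, Egr2 (-0.069), Egr4 (-0.051), Nr4a3 (-0.012) and Npas4 (-0.036) were lower in the stressed group, and only Egr1, Nr4a1 and Arc were higher. With all libraries, the largest difference was that of Nr4a1, the Nur77 receptor gene, at 0.48 (SE 0.23, adjusted p = 0.666). Its level was 75.6, 43.7, 31.0, 42.5 and 45.9 CPM in female controls 1 to 5 and 63.9, 43.7, 75.0, 66.4 and 90.7 CPM in stressed females 1 to 5. Female controls 2 to 5 were below 4 of the 5 stressed libraries, female control library 1 was above 4 of them, and stressed female library 2 was within the range of the controls.

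Egr1, the most abundant member, came second in females. It measured 275, 146, 108, 168 and 183 CPM in controls and 194, 164, 235, 229 and 309 CPM in stressed females, a log2 difference of 0.36 (SE 0.20, adjusted p = 0.705). Arc averaged 56.7 ± 11.3 CPM (SD, n = 5) in controls and 70.3 ± 18.2 CPM in stressed females, with a log2 difference of 0.28 and a 95% interval of -0.17 to 0.73. Female control library 1 stood above the other controls for both genes. The other 6 members had log2 differences from -0.070 (Egr3) to 0.18 (Egr2). The interval for Npas4 was -0.39 to 0.47 and that for Egr2 -0.57 to 0.94, so changes of moderate size in either direction were not detectable for them. Single libraries moved these values by more than 1.5 times. Without female control library 1, Egr2 was higher by 0.91, Nr4a1 by 0.75 and Egr1 by 0.59 on the log2 scale, without female control library 3 Egr1 was higher by 0.22, and without stressed female library 5 Egr1 was higher by 0.22 and Arc by 0.16. None passed over these fits, in which the lowest adjusted p of any member was 0.336.

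In males, again 0 of 9 members were called, against 0.00770% of genes (1 gene). 7 of 9 were higher in stressed males, against 47.6% of all genes, with a median log2 difference of 0.17. Nr4a2 went the other way, from 4.33, 4.17, 6.51, 7.59 and 5.85 CPM in male controls 1 to 5 to 3.86, 4.05, 3.58, 4.61 and 4.05 CPM in stressed males 1 to 5. Male control libraries 3, 4 and 5 were above every stressed library, and libraries 1 and 2 lay within the stressed range. The log2 difference was -0.52 (SE 0.17, adjusted p = 0.148). It was the only member below an unadjusted p of 0.05, which 15.5% of all genes reached in this contrast. Nr4a3, its relative, was also lower in stressed males, at -0.26 (95% interval -0.66 to 0.15).

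Egr3 had a narrow range in male controls, 109, 121, 111, 117 and 102 CPM, and a wider and higher one in stressed males, 117, 142, 184, 133 and 119 CPM. Its log2 difference was 0.31 (SE 0.18, adjusted p = 0.416), and 2 of 5 stressed libraries lay below the highest control. Egr2 (0.36), Arc (0.27), Egr4 (0.17), Egr1 (0.17) and Nr4a1 (0.12) were higher on the log2 scale without passing the test, and Npas4 was level at 0.0075. Stressed male library 3 was the highest of its group for Egr1, Egr2, Egr3, Egr4, Nr4a1, Nr4a3, Arc and Npas4 and the lowest for Nr4a2. Without it Egr2 was higher by only 0.050 on the log2 scale, Egr1 by 0.052, Egr3 by 0.19, Arc by 0.098 and Egr4 by 0.011, and Nr4a1 was at -0.024. Without stressed male library 5 Arc was higher by 0.43 and Egr4 by 0.29, and none passed in either fit.

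Between the sexes, control males were compared with control females. 0 of 9 members were called, against 0.747% of genes. 8 of 9 were higher in males, against 50.1% of all genes, with a median log2 difference of 0.16. The members vary together, so such a count is not a set of separate results. Without female control library 3, Egr2 (-0.20), Egr4 (-0.089) and Npas4 (-0.064) were lower in males. Nr4a3, the Nor1 receptor gene, showed the largest difference, 0.61 (SE 0.21, adjusted p = 0.151), and was the only member below an unadjusted p of 0.05, which 15.3% of genes reached. It measured 45.6, 21.6, 14.3, 21.1 and 25.9 CPM in female controls 1 to 5 and 30.9, 44.8, 50.6, 35.7 and 44.4 CPM in male controls 1 to 5. Female control library 1 was inside the male range, and the other 4 female controls were below all 5 male controls. Without that library the log2 difference was 1.00 with an adjusted p of 0.00320, and without female control library 3 it was 0.43 with an adjusted p of 0.228. It passed in none of the other fits with a control library left out.

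Nr4a1 was higher in male controls by 0.43 (0.70 without female control library 1) and Egr1 by 0.23 (0.47 without that library and 0.094 without female control library 3) on the log2 scale, and Egr3 was the single lower member, at -0.36 (SE 0.18, adjusted p = 0.346, -0.23 without female control library 1). The intervals of Egr2 (-0.72 to 0.83), Npas4 (-0.43 to 0.46) and Arc (-0.30 to 0.61) held 0 and were wide. Between stressed males and stressed females 0 of 9 were called, against 0.0770% of genes, and 0 of 9 passed at an unadjusted p under 0.05, against 7.06%. 7 of 9 were higher in males, against 49.9% of all genes, with differences from -0.28 (Nr4a2) to 0.23 (Egr2). Nr4a3, the member with the largest sex difference in controls, differed by 0.19 (95% interval -0.22 to 0.59) in stressed mice. These comparisons share libraries with the stress comparisons and are not independent of them.

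The difference between the sexes in the stress difference was tested as an interaction, in which 0 of 9 members and 0% of all genes were called (22 genes by DESeq2). At an unadjusted p under 0.05, 0 of 9 members passed, against 10.4% of genes. The estimates ran from -0.47 for Nr4a2 (SE 0.25, adjusted p = 0.516) to 0.39 for Egr3 (SE 0.25, adjusted p = 0.613). Nr4a3 (-0.43) and Nr4a1 (-0.36) were also negative, so that the estimated stress difference was lower in males than in females for all 3 Nr4a genes, without passing the test. Without female control library 1 the estimates were -0.82 for Nr4a3, -0.63 for Nr4a1, -0.43 for Egr1 and 0.25 for Egr3. With all libraries, Egr1 was at -0.19, Egr2 at 0.18 and Egr4 at 0.030. Arc (-0.014) and Npas4 (-0.034) were near 0, with intervals of -0.65 to 0.62 and -0.64 to 0.57. The groups overlapped for 9 of 9 members in each of the 4 comparisons of 2 groups, in which the share of genes that did not overlap was 1.22% between the female groups, 4.30% between the male groups, 3.97% between the control groups and 1.27% between the stressed groups.

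**Figure D2:**
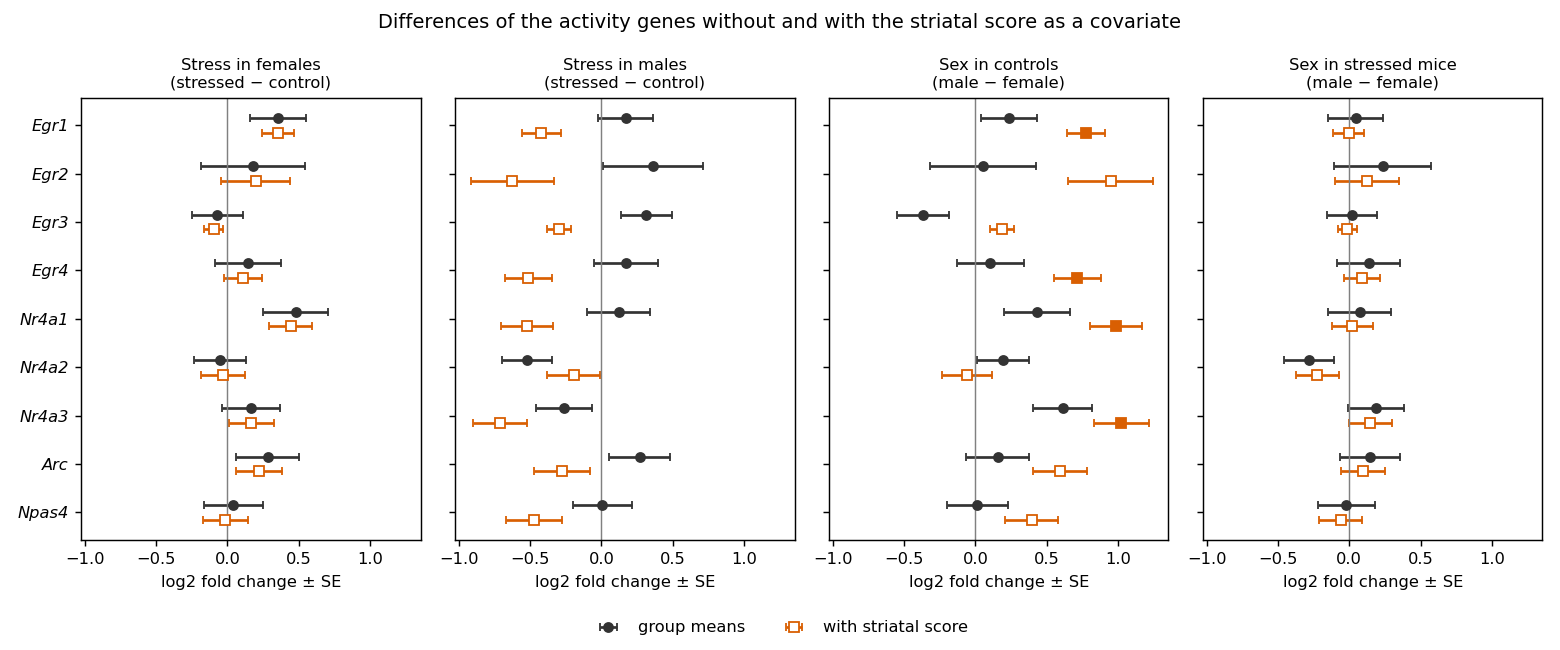
Log2 differences ± SE of the 9 genes in the 4 comparisons of 2 groups, from the fit with group means alone (circles) and with the striatal marker score as a covariate (squares, filled where the adjusted p is under 0.05). No circle stands for a called gene, and among the squares Nr4a1, Egr1, Nr4a3 and Egr4 are called in the comparison of control males with control females.

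With the group means taken out, 8 of the 9 genes went up and down together from pool to pool, and Nr4a2 went against them. Among the 28 pairs without Nr4a2, Pearson's r over 20 libraries was positive in all 28, from 0.553 (Nr4a3 and Arc) to 0.946 (Nr4a1 and Arc), with a median of 0.778. All 28 passed an adjusted p of 0.05 in a permutation test within groups (100000 shuffles, adjusted over 36 pairs), and 24 of 28 did so on Spearman's rho, which ran from 0.451 to 0.968. Without the 2 libraries farthest from the median of the first gene, r was 0.422 to 0.954. The median r of a member to all 12979 other genes lay between -0.0210 and 0.0417, and for Nr4a1 only 0.0231% of those genes exceeded its median r to the other 7 members (0.884).

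The tightest pair, Nr4a1 and Arc, encodes a nuclear receptor and a synaptic protein. Its r was 0.946 and its rho 0.968, each with a permutation p of 1e-05, the smallest that 100000 shuffles can give, and adjusted p-values of 9e-05 and 0.000103; r was 0.954 without the 2 farthest libraries. Egr2 and Egr4 came next, with r = 0.935 and rho = 0.949 (adjusted permutation p = 9e-05 for r). Npas4 was the loosest of the 8. Its r to the other 7 ran from 0.563 to 0.636, and 5.85% of other genes exceeded its median r to them (0.598).

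Nr4a2 was negatively correlated with each of the other 8, with r from -0.571 (Npas4) to -0.357 (Nr4a3). 3 of its 8 pairs passed, those with Npas4 (rho = -0.526, adjusted permutation p = 0.0176 for r, r = -0.483 without the 2 farthest libraries), Nr4a1 (r = -0.511, rho = -0.502, adjusted permutation p = 0.0362, -0.456 without) and Egr3 (r = -0.510, rho = -0.546, adjusted permutation p = 0.0402, -0.501 without). The number of passing pairs was 31 of 36 with all libraries. It was 21 without female control library 1 and 34 without female control library 3.

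The shared movement was visible in single pools. Female control library 1 was above its group mean for 8 of 9 members, by 1.37 for Egr2 and 0.93 for Nr4a3 on the log2 scale, and below it for Nr4a2 (-0.47). Stressed female library 5 and stressed male library 3 had the same form, each above for 8 of 9 and below for Nr4a2. Female control library 3 (-1.24 for Egr2, -0.92 for Egr4), stressed female library 2, stressed male library 5 and male control library 1 were each below for 8 of 9 members, and stressed male library 1 for all 9. High and low pools thus occurred among control and stressed mice and in both sexes.

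**Figure D3:**
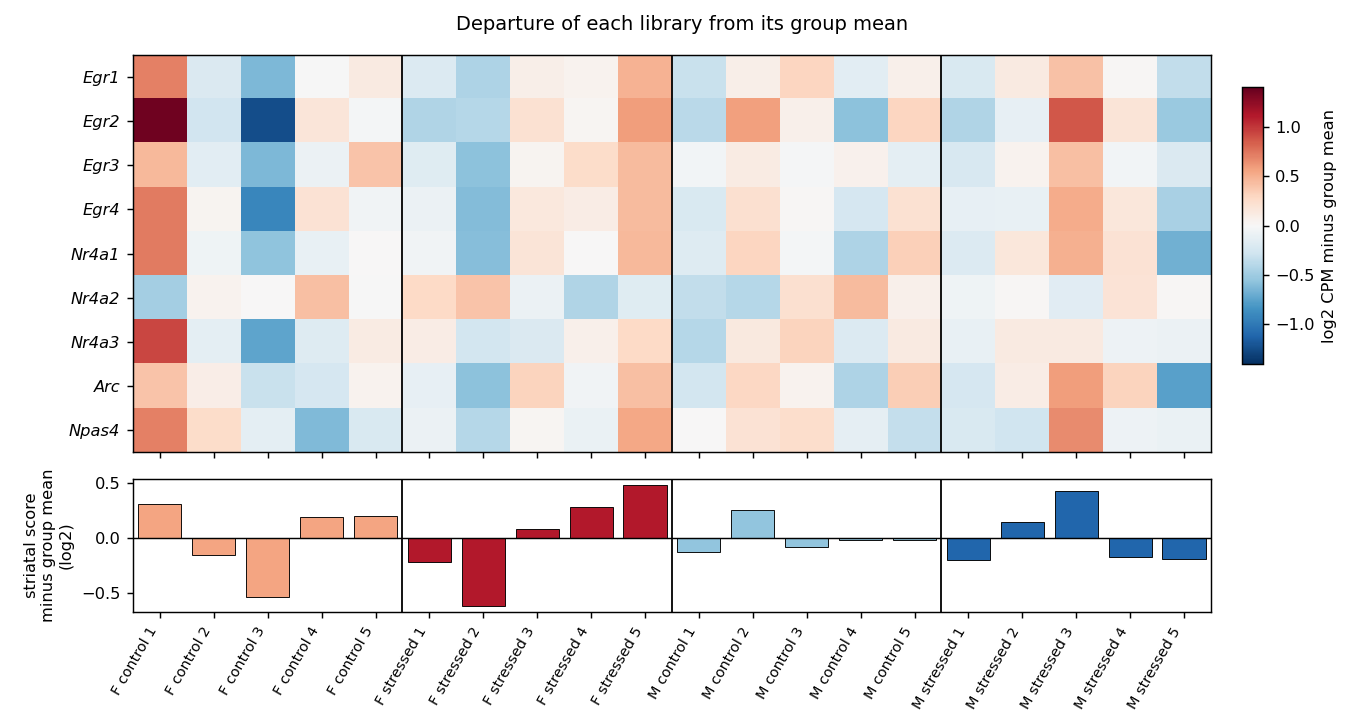
Difference of each member from its group mean (log2 CPM, colour scale) in each of the 20 libraries, with the striatal marker score minus its group mean as bars beneath. Columns tend to have a single colour except in Nr4a2, and female control library 1 and stressed male library 3 are high where female control library 3 is low.

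**Figure D4:**
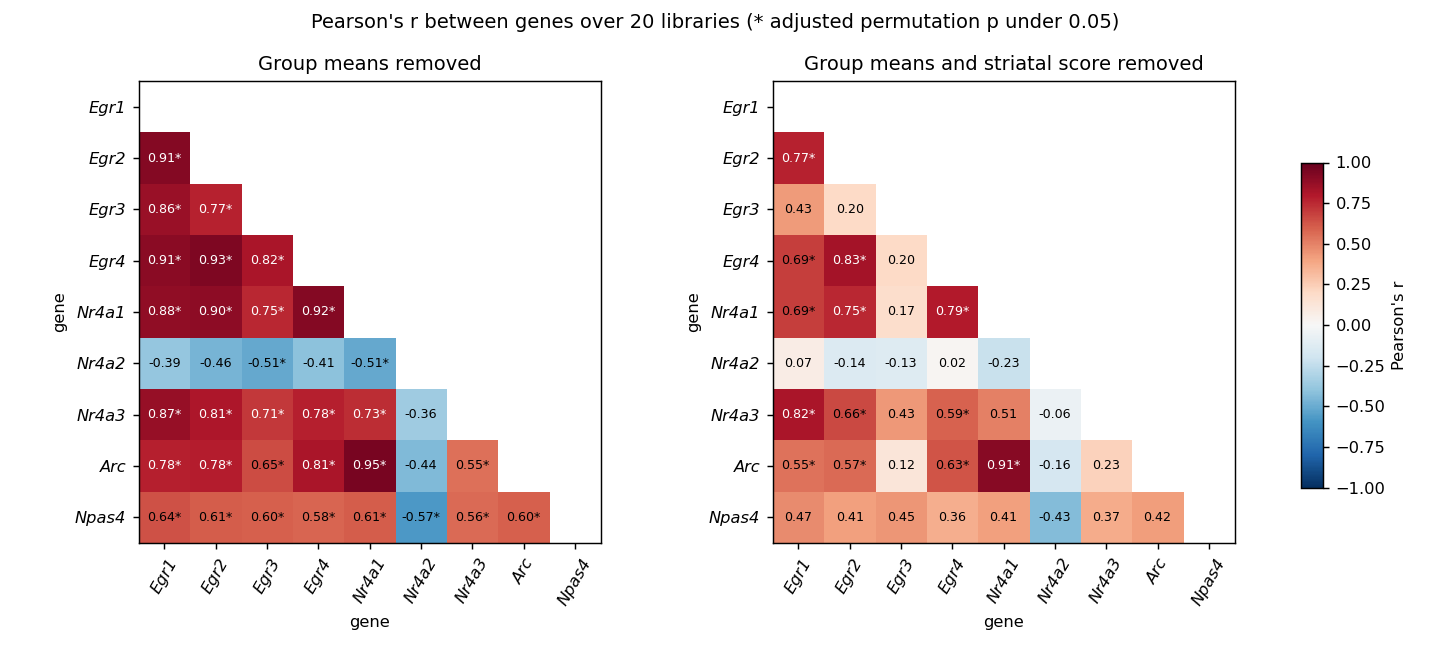
Pearson's r of the 36 pairs of members over 20 libraries with group means removed (colour scale and printed value, with an asterisk for an adjusted permutation p under 0.05), as measured and after the striatal marker score was removed too. The 28 pairs without Nr4a2 lie between 0.553 and 0.946 as measured and between 0.119 and 0.908 after removal.

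Pools that were high in the members tended to be high in striatal marker genes. A score, the mean log2 CPM of 14 markers such as Drd1, Drd2 and Adora2a, was compared with each member within groups. Exceptions included male control library 3 and stressed male library 4, above their group means in 7 and 6 of 9 members. Their scores, -0.509 and 0.0126, were below their group means of -0.423 and 0.187. Egr3 followed it most closely, with r = 0.933 and rho = 0.931 (adjusted permutation p = 0.00090, r = 0.880 without the 2 farthest libraries). 7 of the 9 members passed over the family of 90 tests of members against 10 scores: after Egr3 came Egr1 (r = 0.835), Egr4 (0.832), Egr2 (0.773), Nr4a1 (0.765), Arc (0.666) and Nr4a3 (0.629). Npas4 (r = 0.491, adjusted permutation p = 0.118) and Nr4a2 (r = -0.504, adjusted permutation p = 0.0823) did not pass.

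**Figure D5:**
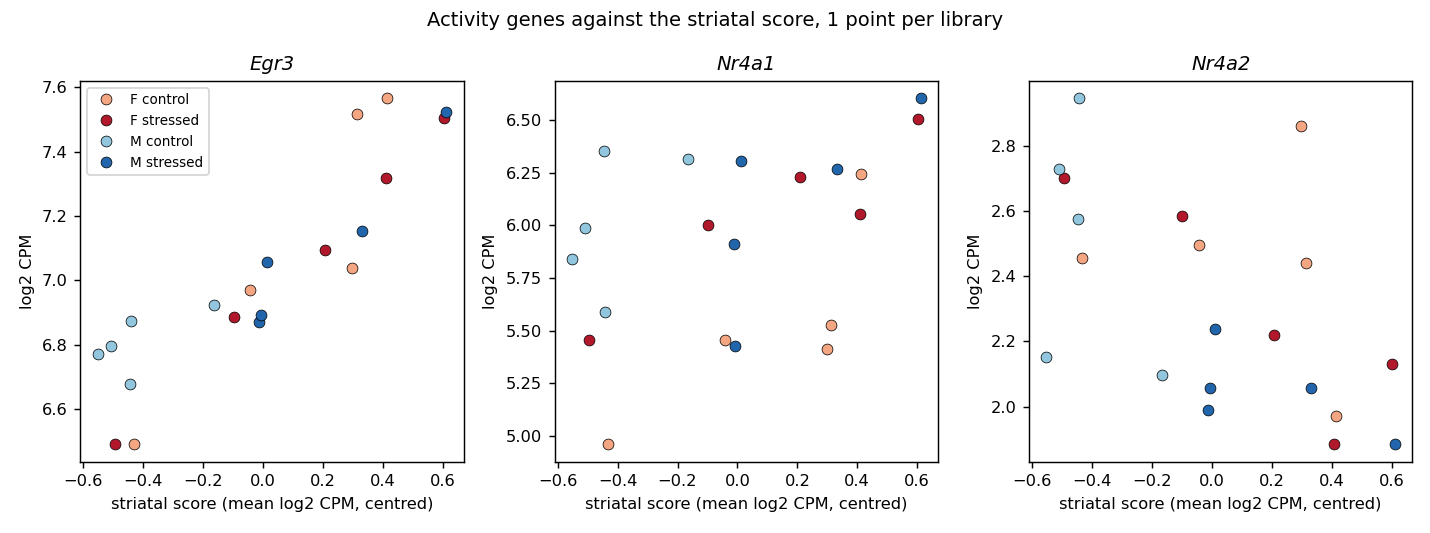
Egr3, Nr4a1 and Nr4a2 (log2 CPM) against the striatal marker score of the same library (mean log2 CPM of 14 markers, centred on 0), with points coloured by group. With group means removed, Egr3 follows the score most closely (r = 0.933), and Nr4a2 has a negative r (-0.504).

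Npas4, the member not passing among the 8, had its largest r in size to glial markers. That to the astrocyte score (6 of 6 markers) was -0.907, with rho = -0.916, an adjusted permutation p of 0.00090 and r = -0.878 without the 2 farthest libraries, and its r to the oligodendrocyte score (8 of 8 markers) was -0.850 (rho = -0.919, adjusted permutation p = 0.00112, -0.762 without). For the other members these relations differed between the 2 measures. The astrocyte score was passed by 8 members on r, all negative, but by 1 (Npas4) on rho, and the oligodendrocyte score by 2 on r and 1 on rho. The score of cortical excitatory neurons (3 of 7 markers in the table, summed at 8.47 to 32.6 CPM) was passed by 7 on r and 2 on rho, the bed nucleus score by 6 and 3, and the thalamic score (7 of 8 markers) by 3 and 1. The striatal score was passed by 7 on either. Nr4a2 had positive r to the other 5 of these scores, none of which passed. Microglial, endothelial and choroid plexus scores and the log2 library total were passed by 0 of 9 members, with r to the library total from -0.126 to 0.359. What part tissue make-up or activity of the cells had in the shared movement was not tested.

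The striatal score also differed between groups. It averaged 0.110 ± 0.348 in female controls, 0.125 ± 0.433 in stressed females, -0.423 ± 0.151 in male controls and 0.187 ± 0.278 in stressed males (SD, n = 5). Male controls, at -0.552 to -0.165, did not overlap stressed males, at -0.0130 to 0.612, and of the female controls only library 3, at -0.431, was within the male control range. 14 of 14 striatal markers were higher in stressed than in control males at an unadjusted p under 0.05, with a median log2 difference of 0.62 and 0 of them called, and 14 of 14 were lower in male than in female controls, 1 of them called. Between female groups 9 of 14 were higher in stressed mice, with a median of 0.058. In males the striatal score and the stress group therefore cannot be told apart by these libraries. The bed nucleus score set male controls apart as well, in the other direction. At 0.111 to 0.202 they overlapped neither stressed males (-0.336 to 0.0829) nor female controls (-0.141 to 0.0463). Of its 12 markers, 6 were lower in stressed than in control males at an unadjusted p under 0.05, with 0 called. Between controls, 4 were higher in males at that p, and 1 was called. Only the striatal score was used as a covariate.

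With the striatal score as a covariate in the same fit, 4 of the 9 members were called between control males and control females. Nr4a1 exceeded its female level by 0.99 (SE 0.18, adjusted p = 0.00857), Egr1 by 0.77 (SE 0.13, adjusted p = 0.00557), Nr4a3 by 1.02 (SE 0.19, adjusted p = 0.0110) and Egr4 by 0.71 (SE 0.16, adjusted p = 0.0444) on the log2 scale. In that fit 0.385% of genes were called higher, and 8 of 9 members were higher at an unadjusted p under 0.05, against 6.24% of genes. The score was lower in male than in female controls, and 8 of 9 members had a positive r to it within groups. The direction of the shift was therefore set in advance, and members that vary together are not separate results. Egr2, Egr3, Arc, Npas4 and Nr4a2 were not called. The calls leaned on female control library 3, the only female control with a score in the male range: without it 0 of 9 members were called, with adjusted p-values of 0.0887 for Nr4a1, 0.0953 for Egr1 and 0.170 for Nr4a3, while over the 10 fits with a control library left out their lowest log2 differences were 0.87, 0.68 and 0.80. Leaving out any other control library gave 3 to 5 called members, with Nr4a1, Egr1 and Nr4a3 among them each time.

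The same covariate turned the stress comparison in males, where the score and the stress group cannot be told apart. The direction of this turn follows from how the members track the score and from its higher level in stressed males. The interaction carries the same shift. All 9 members were then lower in stressed males, 7 of them at an unadjusted p under 0.05 against 3.21% of genes lower at that p, and 0 were called (lowest adjusted p = 0.834), against 0.00770% of genes called lower. Nr4a3 was lowest, at -0.71 (SE 0.19), and Egr1, at -0.42, and Nr4a1, at -0.52, had changed sign. Nr4a2, the member with the smallest p before, was at -0.20 (SE 0.18, adjusted p = 0.917). In females, where the score hardly differed between groups, Nr4a1 stood at 0.44 (SE 0.15, adjusted p = 0.341) and Egr1 at 0.35 (SE 0.11, adjusted p = 0.315), the 2 of 9 members higher at an unadjusted p under 0.05, against 4.76% of genes. None was called there, against 0.00770% of genes called higher. In the interaction all 9 estimates were negative, 5 at an unadjusted p under 0.05, against 5.99% of genes, and 0 were called, against 0.00770% of genes called lower (lowest adjusted p = 0.172, Egr1 at -0.78).

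Other activity-induced genes were counted beside the members. Of a list of 36 such symbols, 31 were in the table, and at an unadjusted p under 0.05 the number passing was 5 between the female groups (against 7.51% of all genes), 6 between the male groups (15.5%), 11 between control males and females (15.3%), 1 between stressed males and females (7.06%) and 8 for the interaction (10.4%). In 4 of the 5 contrasts none was called, and 1 was called between control males and females. Trib1, which encodes a pseudokinase, was 7.98 ± 0.583 CPM in female controls and 11.5 ± 1.89 CPM in male controls (log2 difference 0.51, SE 0.11, adjusted p = 0.0306). Trib1 was higher in stressed than in control females by 0.35 and lower in stressed than in control males, at -0.44 (adjusted p = 0.0871), and its interaction estimate was -0.79 (SE 0.15, adjusted p = 0.0796). Per1, a clock gene that is also induced by CREB, had the smallest p for stress in females, 0.46 (SE 0.11, adjusted p = 0.389), and Ier5 was at 0.43 in stressed males (adjusted p = 0.109). Between stressed males and females Trib1 was at -0.27 (adjusted p = 0.628), opposite in sign to the controls and not called. The smallest p-values after Trib1 were those of Ppp1r15a (-0.14) for sex in stressed mice and Inhba (0.96, adjusted p = 0.335) for the interaction. The list's median log2 difference was 0.043 for stress in females, -0.077 for stress in males and 0.11 for sex in controls, where 21 of 31 were higher, against medians near 0 for all genes.

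Of 28 symbols for regulators and partners of the members, 26 were in the table and 0 were called in any contrast; at an unadjusted p under 0.05, 9 passed for stress in males, all higher (15.5% of all genes passed), and 8 for sex in controls, 7 of them lower (15.3%). The 14 striatal markers had the same directions, all higher in stressed males and all lower in male than in female controls, and with the striatal score as covariate 1 of the 26 was higher at that p for stress in males and 0 lower for sex in controls. In stressed males, Mef2c, which encodes a transcription factor that drives activity genes, was at 0.38 (SE 0.083, adjusted p = 0.0806), and Camk4, which encodes a nuclear calcium-dependent kinase, at 0.55 (SE 0.15, adjusted p = 0.0919). The same 2 genes had the smallest p between control males and females, at -0.25 and -0.48, a comparison that shares the male controls, and in the interaction, at 0.39 and 0.64. In stressed females, Nab1 (-0.18) and Nab2 (0.24, adjusted p = 0.669), whose products bind Egr proteins and repress them, came first. Between stressed males and females these were Dnm2, whose protein binds Arc, at -0.12, and the CREB coactivator gene Crtc2, at -0.16.

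The genes outside the 9 whose levels tracked the members' mean most closely over 20 libraries, with group means removed, were Fosb (r = 0.903), Srf (0.893), Ptpn1 (0.892), Fosl2 (0.890) and Per1 (0.880). For single members the closest gene was Per1 for Egr1 (r = 0.898), Fosl2 for Egr2 (0.908) and Nr4a3 (0.917), Homer1 for Egr3 (0.969), Srf for Egr4 (0.923), Junb for Nr4a1 (0.936) and Arc (0.914), Dlx6os1 for Npas4 (0.888) and Tmie for Nr4a2 (0.830). These r values were picked as the highest of 12979 genes and describe these libraries only. None of the 9 genes so named was called in any contrast. Fosl2, an AP-1 family gene, came nearest, at 0.79 (SE 0.20, adjusted p = 0.0631) between control males and females, and Homer1, whose protein organises postsynaptic receptors, was at 0.34 (SE 0.14, adjusted p = 0.227) in stressed males.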

How the data were processed

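RNA of the adBNST was measured in 20 libraries, each a pool of 3 mice. The authors deposited raw counts for each gene symbol, not normalized, from libraries of a stranded mRNA kit per the labels. STAR, featureCounts and mm10 are named in the submitters' processing notes, and the annotation was not given in the sources used here. All rows had a total of at least 1002 counts, and rarer genes were not analysed here. All 20 columns were matched to a sample by label.

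Differences were fitted on these counts in edgeR 4.0.16 (R 4.3.3): TMM scaling, filterByExpr (which kept all 12988 genes), 1 mean per group over all 20 libraries, and the two-sided quasi-likelihood test with Benjamini-Hochberg adjustment over all genes. Called means an adjusted p under 0.05, and every adjusted p of a log2 difference in the text is from this test unless another is named. Sex differences are male minus female, and the interaction is the male minus the female stress difference. Correlations used log2 CPM (prior count 2) centred on group means, with 100000 shuffles within groups (Python 3.11.15, numpy 2.4.6). Marker scores are the mean log2 CPM of lists for bed nucleus, striatal, thalamic and cortical neurons, oligodendrocytes, endothelial cells, choroid plexus, microglia and astrocytes. On simulated counts for stress in males over 12988 genes, the test called 80 of 100 genes changed by 0.5 and 100 of 100 changed by 1 on the log2 scale. That holds for genes at large, with a median biological coefficient of variation of 7.72%, and not for the members, at 16.4% to 37.7%. The 40 pairs of libraries within groups differed by more than counting noise (chi-square per degree of freedom 1.88 to 39.4), so each counts as 1 sample.

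The members and the lists were chosen with earlier results of these data known. All 9 members are given in each contrast. From the activity and partner lists the genes named are those called or, where none was, the 2 with the smallest p, and beside them the genes most like the members. Alternatives were DESeq2 1.42.0, its size factors within edgeR, no count filter, only the groups compared, a replicate block, the striatal score as covariate or removed from correlations, a prior count of 0.5, and each library left out. Leaving out female control 3 with stressed female 2, and single control libraries under the covariate, was added after seeing the data.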

Additional observations from a re-analysis of the deposited data

Results flagged for a closer look

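In stressed male library 3, Npas4 measured 37.8 CPM, against 19.7 to 22.6 CPM in the other 4 stressed male libraries, a gap that passes Dixon's 95% limit for 5 values (0.71 of the range). It was the single such value among 36 sets of 1 member in 1 group, and chance alone gives about 1 in 20.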

How the results depend on the processing

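The finding that 0 of 9 members were called held in all 5 contrasts with DESeq2 size factors, no count filter, DESeq2, a fit of only the groups compared (4 contrasts), the replicate block, and female control 3 and stressed female 2 both left out, an alternative chosen after seeing the data. It did not hold for sex in controls with the striatal score as covariate (4 called), nor over single libraries left out (0 to 1 called). The number of genes called, the background, moved more. DESeq2 called 1 gene between the female groups, 239 between the male groups, 248 between the control groups and 22 for the interaction. Fitting only the groups compared gave 303 and 304 for stress in males and sex in controls, and leaving out both named libraries gave 387 and 390. DESeq2 size factors in edgeR gave 3 for the interaction. The striatal covariate gave 2 for stress in females and 1 for the interaction. Single libraries left out gave 0 to 129 between the male groups, 32 to 214 between the control groups and 0 to 4 for the interaction. Member pairs passing fell from 31 to 13 with the striatal score removed.

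Replicate numbers did not pair the libraries: same-numbered libraries of different groups correlated at -0.473 to 0.237 over 30 pairs, 5 of them above 0.1, and 0 of 20 libraries correlated best with one of its own number. With the number as a replicate block, genes called for sex in controls went from 97 to 48, 0 members were called, and Npas4 for stress in males was -0.019.

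These log2 differences changed sign. With the striatal covariate they were Npas4 -0.014 for stress in females, Egr1 -0.42, Egr2 -0.62, Egr3 -0.30, Egr4 -0.51, Nr4a1 -0.52, Arc -0.27 and Npas4 -0.47 for stress in males, Egr3 0.19 and Nr4a2 -0.059 for sex in controls, Egr1 -0.0037 and Egr3 -0.016 for sex in stressed mice and Egr2 -0.82, Egr3 -0.20 and Egr4 -0.62 for the interaction. With both named libraries left out they were Egr2 -0.20, Egr4 -0.091 and Npas4 -0.070 for sex in controls and Egr1 -0.052, Egr3 -0.10, Egr4 -0.0069 and Nr4a1 -0.059 for sex in stressed mice. DESeq2 gave Npas4 -0.046 for stress in males and Egr4 -0.0055 for the interaction, and a fit of the control groups alone gave Npas4 -0.0043 for sex in controls. Over single libraries left out, the ranges that crossed 0 were Egr2 -0.069 to 0.91, Egr3 -0.21 to 0.061, Egr4 -0.051 to 0.44, Nr4a2 -0.20 to 0.045, Nr4a3 -0.012 to 0.56 and Npas4 -0.14 to 0.28 for stress in females, Nr4a1 -0.024 to 0.27 and Npas4 -0.21 to 0.074 for stress in males, Egr2 -0.20 to 0.79, Egr4 -0.089 to 0.40 and Npas4 -0.064 to 0.25 for sex in controls, Egr1 -0.071 to 0.19, Egr2 -0.077 to 0.43, Egr3 -0.10 to 0.15, Egr4 -0.027 to 0.28, Nr4a1 -0.072 to 0.22, Arc -0.028 to 0.30 and Npas4 -0.24 to 0.16 for sex in stressed mice and Egr2 -0.55 to 0.43, Egr4 -0.26 to 0.23, Arc -0.18 to 0.15 and Npas4 -0.27 to 0.15 for the interaction; of 540 such values 468 kept direction and side of the threshold and 71 changed sign. The cause was not tested for any of these. Depth limits Nr4a2 and Egr2 most, with 19 and 21 counts in female control library 4, and another scaling moved no member level by more than 1.25%.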

Other observations

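With the striatal score as covariate, other activity-induced genes were called beside the members. Per1 was called for stress in females (adjusted p = 0.0391), where 2 of all genes were called. It was also called for the interaction, with a negative estimate (adjusted p = 0.0286), as the only gene there. Fosb, an AP-1 family gene, was called lower in stressed than in control males (adjusted p = 0.0416), again as the only gene. In males the score and the stress group cannot be told apart, which limits the Fosb call and that for the interaction. Between control males and females, Fosl2, Fosb, Per1, Klf4 and Nptx2 were called, 5 of the 31 list genes in the table, against 72 of all 12988 genes (20 without female control library 3). Whether these 5 stayed called without that library was not tested. Fosb, Fosl2 and Per1 were among the genes that tracked the members' mean most closely, so their calls are not separate from those of the members. Of the 26 regulator and partner genes, 0 were called in any contrast of that fit, with 4 at an unadjusted p under 0.05 for sex in controls, against 12.4% of all genes.

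After removal of the striatal score, 13 of 36 member pairs still passed an adjusted permutation p of 0.05, all of them positive and all among Egr1, Egr2, Egr4, Nr4a1, Nr4a3 and Arc. Nr4a1 and Arc had the highest value (r = 0.908, rho = 0.892, adjusted permutation p = 0.00036, r = 0.847 without the 2 farthest libraries), and Egr2 and Egr4 followed (r = 0.828, rho = 0.853). The 8 pairs of Nr4a2 then ran from -0.431 to 0.0728, and none passed.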
